A study of Mus musculus with 6 samples.

Results

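Dup-S, a mouse line with a duplication inside 1 chromatin domain of the Sox9/Kcnj locus, was compared with wild type (WT) by capture Hi-C. The comparison used 2 of the 6 libraries of the series, 1 of Dup-S and 1 of its control WT, both chosen by their genotype label. Both came from limb buds of mouse embryos at E12.5. WT carries no alteration of the locus in the labels, and Dup-S carries a duplicated segment of 420 kb at chr11:111750001-112170000 (mm9). A deltaBor library, from mice that lack the boundary between the Kcnj-side and Sox9-side domains, gave a further comparison with WT in which the segment is not duplicated. A Dup-L library, from mice with a longer duplication that includes the segment and the boundary, was used for a few values. The deltaBor and Dup-L embryos were also at E12.5. Neither the zygosity of the mutants nor the number of embryos pooled or of founder lines was known from the labels.

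Chromatin in mammalian cells folds into domains within which DNA contacts itself often, separated by boundaries that contacts cross less often. Sox9, a transcription factor required for cartilage and gonad development, lies in a large domain with few other genes, and the neighbouring domain holds Kcnj2 and Kcnj16, which encode inwardly rectifying potassium channels. Duplications within the Sox9 domain are known from patients with sex reversal, while duplications that extend across the boundary are known from limb malformations. In a head-to-tail repeat, the end of the first copy is joined to the start of the second, so sequences far apart on the reference become neighbours. The question put by the design is what a duplication does to the contact map when no boundary is included. How the copies are arranged in Dup-S was not tested.

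Capture Hi-C ligates pieces of DNA that are near each other in fixed nuclei and pulls down those from the locus with probes. Each sequenced pair counts as 1 contact between 2 bins, here of 10 kb. The maps covered 109010001 to 114880000 of chromosome 11 in 587 bins. The WT map held 7051882 contacts and the Dup-S map 5280553, and 96.1% and 93.5% of the 172578 possible bin pairs held at least 1. There were no replicates, so no p-value is given and differences between animals or preparations cannot be told apart from differences between genotypes. Folds are Dup-S over WT after multiplying the Dup-S counts by 1.47, the factor that equalised contacts with both bins on the same side outside the segment. Their 95% intervals are exact (Clopper-Pearson) intervals that cover counting error only. By a RefSeq gene table on GRCm38, Kcnj2 and Sox9 have 1 other protein-coding gene between them, Gm11677, and Kcnj16 lies on the far side of Kcnj2. No position on mm9 was available here for any of them, so contacts of single promoters were not computed.

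The locus was divided by the WT map. Its deepest insulation minimum, the boundary, lay at the bin 111380001 to 111390000, and the domain on its telomeric side, here the Sox9-side domain, ran to a shallow minimum at 112650001. The duplicated segment lay inside this domain, 360 kb from the boundary bin. The unduplicated remainder of the domain is called the centromeric flank (111390001 to 111750000, 360 kb) and the telomeric flank (112170001 to 112650000, 480 kb). Beyond the domain were the Kcnj-side domain (110200001 to 111380000) and, on the telomeric side, a stretch of 370 kb (112660001 to 113030000) up to the next minimum.

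The gain of the segment was visible in the contact sum of every bin. Inside the segment the 42 bins had scaled ratios of contact sums to WT of 1.39 to 1.66, with a median of 1.60. Outside it, the 534 bins with a WT sum of at least 5000 had ratios of 0.781 to 1.17, with a median of 1.02, so these sets did not overlap. The other 11 outside bins, with low sums, extended the outside range to between 0.684 and 1.85, which includes that of the segment. In deltaBor the same 42 bins had ratios of 0.998 to 1.09. Contacts within a single bin gave a median ratio inside the segment of 1.57 over the median outside. Their range was 1.13 to 1.79 inside and 0.594 to 1.46 outside, so the ranges overlapped. The segment had been placed by this gain, so these values describe the segment and are not a finding about it.

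**Figure D1:**
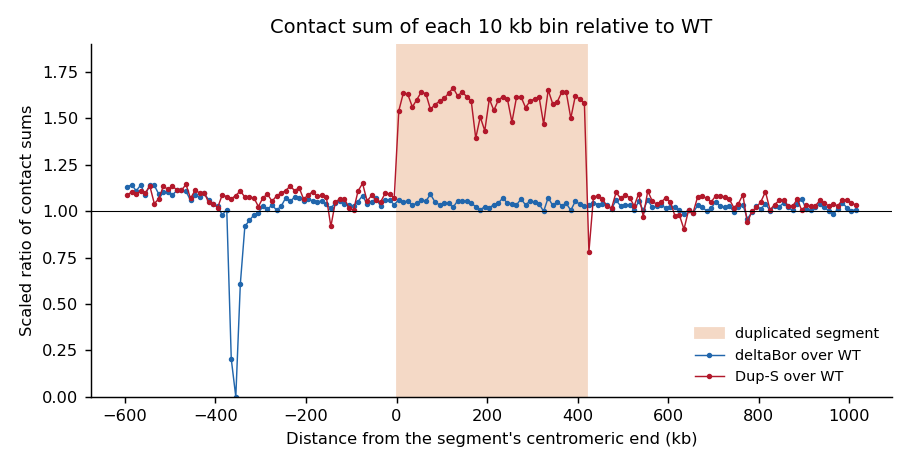
Contact sum of each 10 kb bin over WT, scaled on contacts outside the segment, against distance from the centromeric end of the segment in kb, for Dup-S (red) and deltaBor (blue). All 42 Dup-S bins in the shaded segment lie at 1.39 or above, the bin just past its telomeric end is at 0.781, and deltaBor stays between 0.998 and 1.09 in the segment and falls to 0 at the deleted boundary.

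The segment contacted itself more in Dup-S, and the excess grew with the distance between the bins. As the segment had been placed by its gain in contact sums, the excess itself is a description. For bins 20 to 40 kb apart, WT had 609 contacts per bin pair and Dup-S 997 after scaling, a fold of 1.64 (1.62 to 1.65). At 100 to 140 kb the levels were 180.5 and 360, a fold of 1.99 (1.96 to 2.03). At 200 to 240 kb they were 124.6 and 289, a fold of 2.32 (2.26 to 2.37), and at 300 to 340 kb they were 88.9 and 260, a fold of 2.92 (2.82 to 3.03). At the longest separations, 350 to 410 kb, WT had 2470 contacts over 28 bin pairs and Dup-S 6745, a fold of 4.01 (3.82 to 4.20).

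The level itself turned upward at the far end. In WT the contacts per bin pair fell from 609 at the shortest separations to 88.2 at the longest. In Dup-S they fell to 260 at 300 to 340 kb and were higher again, 353, at 350 to 410 kb. Pairs outside the segment and on 1 side of it had folds of 0.968 to 1.00 at the same separations. The segment had folds of 1.00 to 1.09 in deltaBor. In Dup-L, where the segment lies inside a longer duplication, they ran from 1.51 to 1.85. The Dup-L scale rests on the same pairs, part of which are duplicated in Dup-L, so its folds are low: the far parts of the map had folds with themselves of 0.854 and 0.869. Summed over all separations, the segment with itself had 192013 contacts in WT and 251186 in Dup-S, and made up 24.1% and 30.7% of all contacts of the segment.

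**Figure D2:**
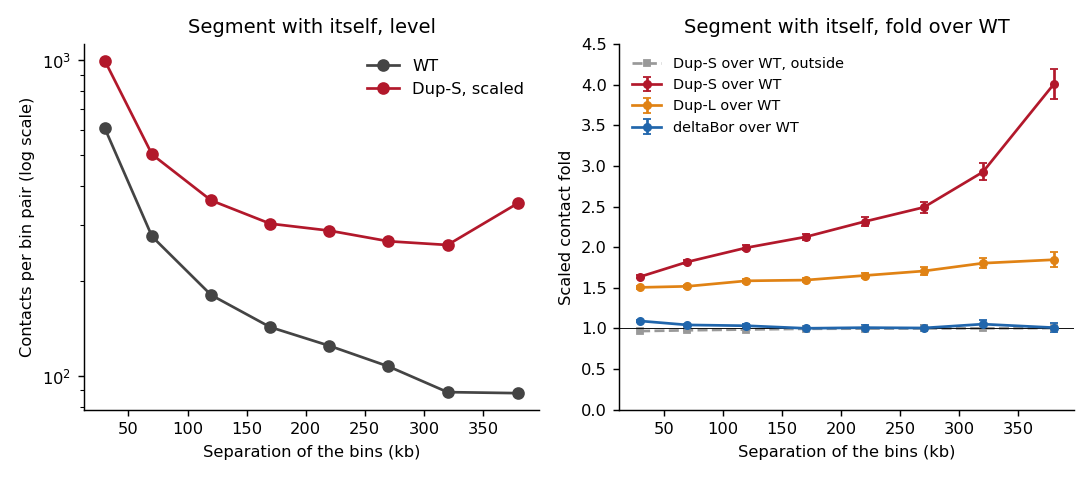
Contacts of the duplicated segment with itself against the separation of the bins in kb, as contacts per bin pair on a log axis in WT and scaled Dup-S (left) and as the fold over WT in Dup-S, Dup-L and deltaBor, with exact 95% intervals for counting error, and in Dup-S pairs outside the segment (right). The Dup-S fold climbs from 1.64 to 4.01 and its level turns up from 260 to 353 at the longest separations, while deltaBor stays at 1.00 to 1.09.

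KR (Knight-Ruiz) balancing gives every bin the same sum and so removes the higher sum of the segment's bins. In the KR maps the fold of the segment with itself was 1.06 in place of 1.92. The rise with separation was present there as well, from 0.907 at 20 to 40 kb, below 1, to 2.14 at 350 to 410 kb.

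The highest folds lay between the 2 ends of the segment. The first and last 20 kb had 373 contacts in WT and 1602 in Dup-S, a fold of 6.30 (5.62 to 7.07), or 93.3 contacts per bin pair against 587. Moving inward from both ends at once in steps of 20 kb, the fold was 3.58, 3.21, 2.75, 2.30, 2.15, 2.11, 2.19, 1.63 and 1.65, so the decrease was steepest over the first step. The 100 kb corners had a fold of 3.11 in Dup-S, 1.04 in deltaBor and, on this low scale, 1.76 in Dup-L. KR maps gave 1.69 for these corners, and corners of 50 kb and 200 kb gave 4.12 and 2.27.

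The single bin pair with the largest fold crossed the telomeric end of the segment. It joined the first bin of the segment, 111750001 to 111760000, to the bin just past its last, 112170001 to 112180000, with 90 contacts in WT and 855 in Dup-S, a fold of 13.9 (11.2 to 17.5). It ranked first of the 18826 bin pairs with at least 50 contacts in both libraries. The same pair had 67 contacts in deltaBor and 141 in Dup-L, scaled folds of 0.905 and 1.44. The first and last bins of the segment came next, with 122 and 665 contacts and a fold of 8.0 (6.58 to 9.78). Of the 11 bin pairs among these 18826 with a fold of at least 4, 10 lay with both bins in the segment. The segment holds 820 bin pairs 2 or more bins apart, before the minimum of 50 contacts. It had been placed by its gain, so high folds inside it are a description. KR maps gave 14.0 for the first pair and 4.43 for the second. These bin pairs were chosen after their values were seen.

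Apart from that pair, the bin past the end had fewer contacts in Dup-S. Its sum was 18517 in WT and 9857 in Dup-S, a scaled ratio of 0.781, the lowest of the 534 outside bins with a WT sum of at least 5000. Without the first bin of the segment the ratio was 0.717 (0.699 to 0.735). Its fold was 0.832 with the other bins of the segment and 0.667 (0.646 to 0.688) with all bins outside. With the telomeric flank alone it was 0.618, from 6352 contacts in WT and 2677 in Dup-S. KR maps, which give every bin the same sum, brought the ratio of the whole bin to 0.942. They gave 0.834 with the other bins of the segment and 0.919 with all bins outside. In deltaBor this bin had a ratio of 1.03, and the next bin, 112180001 to 112190000, was at 1.04 with the telomeric flank in Dup-S. The bin before the segment, 111740001 to 111750000, had folds of 1.06 with the centromeric flank and 1.29 with the segment. The position of the end at a finer scale than the 10 kb bin was not determined.

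**Figure D3:**
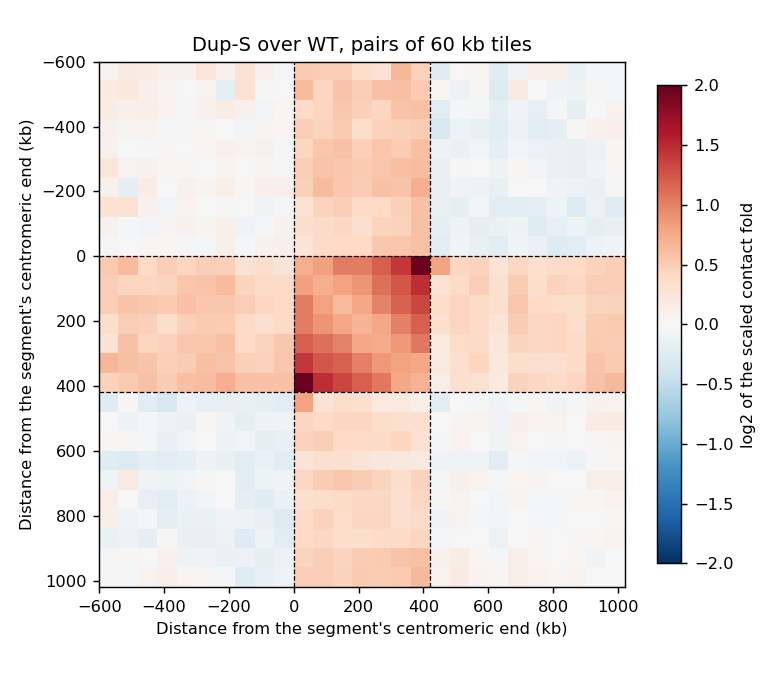
Log2 of the scaled contact fold, Dup-S over WT, for pairs of 60 kb tiles, with both axes in kb from the centromeric end of the segment and dashed lines at its ends. The corner tile pair of the segment has a fold of 3.91, the bands of the segment with its surroundings lie above 1, and the tile pairs that join the flanks across the segment are mostly below 1.

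With chromatin outside itself the segment also had more contacts, by less than with itself. Contact sums by which the segment had been placed include these contacts, so folds above 1 describe it and are not a finding. Its fold was 1.39 (1.38 to 1.40) with the centromeric flank, from 146157 contacts in WT and 138671 unscaled contacts in Dup-S. With the telomeric flank it was 1.28 (1.27 to 1.29), from 210662 and 183678. The folds were 1.45 (1.44 to 1.47) with the Kcnj-side domain, 1.43 (1.41 to 1.44) with the stretch beyond the domain, 1.48 with the far centromeric part of the map and 1.41 with the far telomeric part. All 6 were below the same-bin ratio of 1.57. That ratio is relative to its median outside the segment and is scaled differently, so it is not directly comparable with them. On the scale of these folds, the 2 lowest were those with the flanks in the segment's own domain. With a scale for each separation band the centromeric flank, at 1.38, stood above the Kcnj-side domain, at 1.37, and the stretch beyond the domain, at 1.36, and the telomeric flank was lowest at 1.26. In the KR maps these folds were 1.03 and 0.969 with the flanks, the second on the other side of 1, and 1.05 to 1.09 with the other 4.

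By separation, the excess of the segment with each flank was smallest for the nearest bins. With the centromeric flank the fold was 1.20 (1.17 to 1.23) for bins 20 to 110 kb apart and 1.50 (1.46 to 1.55) at 620 to 710 kb. With the telomeric flank it was 1.12 (1.09 to 1.14) at 20 to 110 kb, 1.35 (1.33 to 1.37) at 420 to 510 kb and 1.31 (1.28 to 1.35) at 720 to 810 kb. The pairs outside the segment ran over 0.945 to 1.08 at these separations, with those on the centromeric side higher than those on the telomeric side at each of them. By position the order was less regular: in the telomeric flank the adjoining 60 kb tile had a fold of 1.20 (1.18 to 1.21) with the segment, and the tile at 180 kb from it 1.18 (1.16 to 1.21). The adjoining tile includes the bin past the end of the segment, whose fold with the segment was 1.04. Pairs of that bin also enter the telomeric values at 20 to 110 kb and, through the pair with a fold of 13.9, at 420 to 510 kb.

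**Figure D4:**
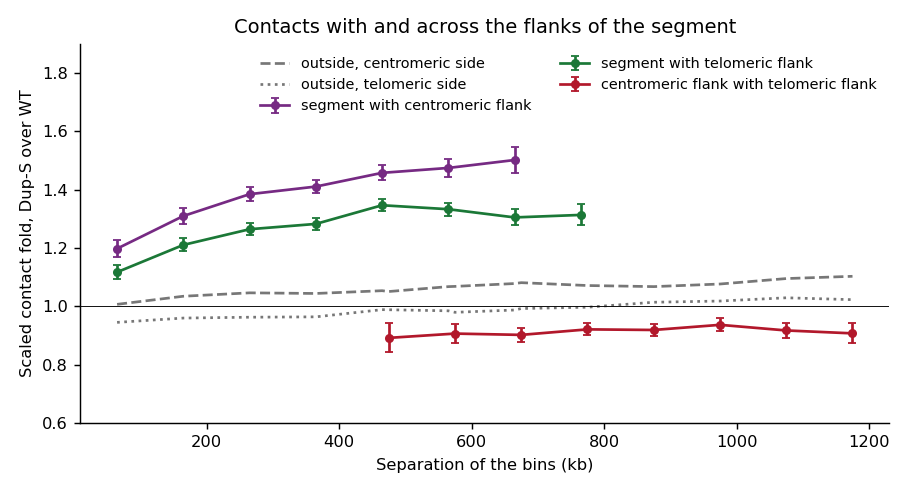
Scaled contact fold, Dup-S over WT, against the separation of the bins in kb, for the segment with each flank, for the flanks with each other and for pairs outside the segment on either side (grey), with exact 95% intervals for counting error. The segment with its flanks climbs from 1.20 to 1.50 and from 1.12 to 1.35, and the flanks with each other stay at 0.891 to 0.936 in all 8 separation bands.

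The folds with the flanks varied along the segment. From its first to its last 60 kb tile, the fold with the centromeric flank was 1.28, 1.40, 1.40, 1.36, 1.43, 1.45 and 1.54. With the telomeric flank it was 1.36, 1.32, 1.32, 1.31, 1.27, 1.24 and 1.22. Each flank had its lowest fold with the adjoining tile of the segment, and the intervals of the end tiles did not overlap. The first value for the telomeric flank includes the bin pair with a fold of 13.9. Without the first bin of that flank, left out after the values were seen, the 7 folds were 1.31, 1.33, 1.32, 1.31, 1.28, 1.253 and 1.246, so the first tile was no longer the highest. With the Kcnj-side domain the 7 tiles ran between 1.39 and 1.51 with no such order, and with the stretch beyond the domain from 1.35 in the first tile to 1.54 in the last. Seen from the whole segment, its 2 end tiles had the highest folds, 2.15 and 2.13, and the middle tile the lowest, 1.83.

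**Figure D5:**
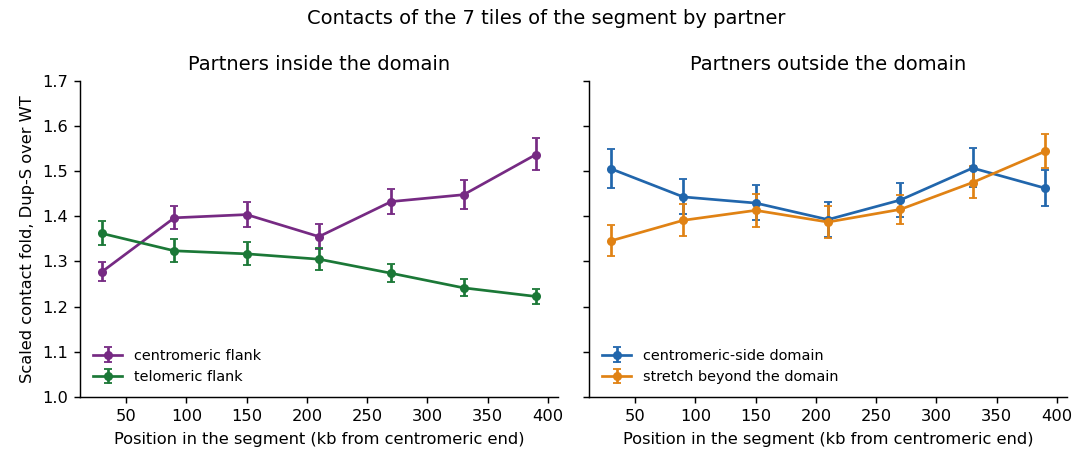
Scaled contact fold, Dup-S over WT, of each of the 7 tiles of 60 kb in the segment with its flanks (left) and with chromatin beyond the domain (right), against position in the segment in kb, with exact 95% intervals for counting error. The fold with the centromeric flank goes from 1.28 to 1.54 along the segment, and that with the telomeric flank from 1.36 to 1.22, where the 1.36 becomes 1.31 without the first bin of that flank.

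The flanks, which are not duplicated, contacted each other less across the segment. They had 103960 contacts in WT and 64926 in Dup-S, a fold of 0.916 (0.907 to 0.925). In 8 separation bands between 430 and 1220 kb the fold was 0.891 to 0.936, while pairs outside the segment at the same separations had 1.05 to 1.10 if centromeric of the segment and 0.979 to 1.03 if telomeric of it. Of the 48 pairs of 60 kb tiles that join the flanks, 44 were below 1, against 33.9% of tile pairs on 1 side of the segment at the same separations. KR maps gave a fold of 0.927. In deltaBor the flanks also had a low fold with each other, 0.8498 (0.842 to 0.858). The DNA lost in deltaBor lies partly inside the centromeric flank, whose first bin had 0 contacts there. Without the first 60 kb of this flank, left out after the values were seen, the fold between the flanks was 0.943 (0.933 to 0.953) in deltaBor and 0.915 (0.905 to 0.925) in Dup-S.

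Other regions joined across the segment lay on both sides of 1, and the median of all 1854 spanning tile pairs was 1.04. The centromeric flank with the stretch beyond the domain had a fold of 0.940 (0.929 to 0.951), and the Kcnj-side domain with the telomeric flank 0.953 (0.942 to 0.964). The Kcnj-side domain with the stretch beyond the domain had 1.03, and with the far telomeric part 1.08. The far centromeric part had 1.03 with the telomeric flank, 1.05 with the stretch beyond the domain and 1.08 with the far telomeric part. Of the 144 tile pairs that join the Kcnj-side domain to the telomeric flank, 101 were below 1, against 27.3% of the same-side pairs at these separations. The Kcnj-side domain with the centromeric flank, which do not span the segment, had a fold of 1.05. It was 1.01 with the scale taken on the centromeric side alone, and 0.959 with the library total. Within the centromeric flank the fold was 1.02 and within the telomeric flank 0.988, and each lay on the other side of 1 under other scales.

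Over the whole map, 4554 pairs of 60 kb tiles had at least 50 contacts in both libraries, and their median fold was 1.06. Of these, 914 (20.1%) had a log2 fold of at least 0.32, the threshold for a gain, and 49 (1.08%) a log2 fold of at most -0.32, the threshold for a loss. With 1 tile or both in the segment, 606 of 650 pairs passed the gain threshold and 0 passed the loss threshold, with a median fold of 1.44. Because the segment had been placed by its gain, this count describes the segment and is not a finding about it. Without a tile in the segment, 308 of 3904 pairs (7.89%) passed the gain threshold and 49 (1.26%) the loss threshold. Scaling on the library total gave 542 gains and 251 losses. All folds are then lower by 0.135 on the log2 scale. KR maps gave 369 gains and 45 losses. In deltaBor 15.1% of tile pairs gained and 5.50% lost, and 0 of the 28 within the segment passed either threshold.

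The share of tile pairs past the gain threshold differed by partner. High shares for pairs with a tile in the segment are again a description, since its gain had placed it. All 28 tile pairs within the segment passed, as did 40 of 42 with the centromeric flank, 123 of 126 with the Kcnj-side domain and 35 of 35 with the stretch beyond the domain. With the telomeric flank 42 of 56 passed. Between the flanks 0 of 48 passed, and 0 of 48 passed the loss threshold, with a lowest fold of 0.836. The 5 largest gains all lay within the segment and had folds of 2.37 to 3.91. The first of these joined the tile 111750001 to 111810000 to the tile 112110001 to 112170000, with 3043 contacts in WT and 8109 in Dup-S. The 5 tile pairs with the lowest folds, 0.630 to 0.710, were 3300 to 4680 kb apart and had 50 to 104 contacts each in Dup-S. The 5 largest gains without a tile in the segment, 1.68 to 1.79, lay at 3120 to 5100 kb with 61 to 154 contacts, so both sets had few contacts.

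The domain structure of WT was found again in Dup-S, apart from the shallow minimum at the telomeric end of the domain. The insulation score averages the contacts that pass over a bin within 500 kb, as log2 relative to all bins. It was -1.46 in WT and -1.43 in Dup-S at the boundary bin. The difference of 0.03 (0.01 to 0.04) was -0.08 with a 200 kb window and -0.02 with KR maps, on the other side of 0. Each score is relative to the mean of its own map, and that of Dup-S includes the contacts gained in the segment. On the scale used for the folds, contacts over the boundary bin had a fold of 1.13 within 500 kb and 1.03 within 200 kb. Of these windows, only that of 500 kb reaches into the segment. All 6 minima of Dup-S with a prominence of at least 0.3 lay within 1 bin of one of the 7 WT minima. The WT minimum without a counterpart was the one at 112650001, which had a prominence of 0.306 in WT and 0.233 in Dup-S, just above and just below the threshold. At this prominence and window no minimum lay inside the segment in either library. With a 200 kb window, some did under other settings: WT had one at 112040001 in the KR maps, with a prominence of 0.373. With the threshold also lowered to 0.15, WT had others in the raw map at 111750001 and 112030001, of prominence 0.186 and 0.297. Dup-S then had one at 111750001 in the raw map, of 0.161. In the KR map it had minima at 111750001 and 112090001, of 0.270 and 0.272. In the middle of the segment the score was 0.57 in WT and 1.03 in Dup-S, and with a 200 kb window 0.46 and 1.49.

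Contacts between the Kcnj-side and Sox9-side domains did not take a larger share in Dup-S. They made up 11.9% (11.9 to 12.0) of the contacts of both domains in WT and 11.5% (11.5 to 11.6) in Dup-S, against 17.7% in deltaBor. With the segment left out of the Sox9-side domain, the shares were 12.1%, 11.8% and 18.1%. Among the segment's contacts with other stretches, the telomeric flank took 34.7% in WT and 32.4% in Dup-S. The centromeric flank took 24.1% and 24.5%, and the Kcnj-side domain 11.9% and 12.6%. In deltaBor the Kcnj-side domain took 17.4%.

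The authors' deposited difference map for Dup-S and WT was 0.271 times the Dup-S count minus 0.192 times the WT count for every bin pair. The ratio of these factors, 1.41, compares with the factor of 1.47 used here. In the authors' deposited map 96.3% of the bin pairs of the segment with the centromeric flank and 88.6% of those with the telomeric flank were above 0. Between the flanks 28.6% were above 0, against 47.6% of pairs on the same side outside the segment, in the same deposited map of the authors.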

How the data were processed

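The authors deposited, for each library, raw contact counts per pair of 10 kb bins and a KR-balanced signal map. They also deposited a map of differences between scaled Dup-S and WT counts. The submitters' processing notes name Bowtie2 2.2.6 and the build mm9, and a mapping quality of 30 appears in the deposited file names. Per the labels' protocols, captured fragments were amplified before and after hybridisation. How read pairs were filtered is not given in the sources, and duplicates left in would make the intervals too narrow.

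Dup-S positions are offsets and were placed on the 587 bins from 109010001. Log bin sums of Dup-S and WT correlated at 0.963 there, and at most at 0.578 at shifts of 1 to 5 bins. Contacts under 2 bins apart were left out of folds. Tile pairs described one by one were those of the 7 segment tiles and the 5 largest gains and losses, with and without the segment, among pairs with at least 50 contacts in both libraries. The members, regions and lists were chosen with earlier results of these data known. Alternatives covered balancing, the scale, separations, low-coverage bins, weighting, segment ends, corner, tile and diamond sizes, and thresholds. Procedures were tested on simulated data. Python 3.11.15, numpy 2.4.6, scipy 1.17.1 and matplotlib 3.10.9 were used. Sequences were not printed, because the tables at hand are on another build.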

Additional observations from a re-analysis of the deposited data

How the results depend on the processing

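With 1 library per genotype, the intervals of the folds cover counting error only and leave out differences between animals or preparations. Contacts left as amplification duplicates would narrow the intervals further, and pairs at separations of several megabases rest on few contacts. No paired analysis was possible because each genotype has 1 library, and for the same reason no replicate was left out. In KR maps the segment's fold was 1.06 with itself (0.907, below 1, at 20 to 40 kb), 1.03 with the centromeric flank, 0.969 with the telomeric flank, 1.05 with the Kcnj-side domain and 1.69 between the corners. There the flanks had 0.927 with each other, the telomeric flank 1.02 with itself, and the share between domains differed by -0.0257 percentage points, with 369 gains and a boundary difference of -0.0211. Scaling on the library total gave 1.75 for the segment with itself, then 1.27, 1.16 and 1.32 with the centromeric flank, telomeric flank and Kcnj-side domain, 0.834 between the flanks, 2.83 at the corners, 542 gains and 251 losses. It also turned the Kcnj-side domain with the centromeric flank to 0.959 and the inside of that flank to 0.931. In the same order of regions, the scale of the centromeric side gave 1.85, 1.34, 1.23, 1.40, 0.882 and 2.99, with 0.985 inside the centromeric flank. The scale of the telomeric side gave 1.99, 1.44, 1.33, 1.51, 0.9503 and 3.22, with 1.03 inside the telomeric flank. A scale for each separation band gave 1.95, 1.38, 1.26, 1.37 and 0.877, with 1.01 inside the telomeric flank. Equal weight for each separation gave 2.38, 1.35, 1.21, 1.40 and 0.864, with 0.979 inside the centromeric flank. Leaving out pairs under 10 bins apart gave 2.23 for the segment with itself, 1.43 with the Kcnj-side domain, 0.902 between the flanks and a share difference of -0.768 percentage points against -0.432. Shortening the segment by 2 bins at each end gave 1.88 with itself, 1.40 with the centromeric flank and 2.80 at the corners, and corners of 50 kb and 200 kb gave 4.12 and 2.27. Tiles of 100 kb gave 271 gains and 2 losses, and a minimum of 200 contacts gave 450 and 8, with fewer pairs tested in each. A 200 kb window gave a boundary difference of -0.0788 and 11 shared minima of 11. The flanks with each other stayed below 1 under every alternative. Leaving out the bin past the telomeric end, chosen after seeing the data, moved the inside of the telomeric flank from 0.988 to 0.998 and no other region's fold by more than counting error. Among the 60 kb tiles of the segment, it moved the fold of the first with the telomeric flank from 1.36 to 1.31. That of the last moved from 1.22 to 1.246. Without the first 60 kb of the centromeric flank, also chosen after seeing the data, the flanks had 0.915 with each other. The cause of these differences was not tested.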
